A study of Mus musculus with 24 samples.

Results

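The 10 genes described here encode proteins that write, remove or read DNA methylation: Dnmt1, Dnmt3a, Dnmt3b, Dnmt3l and Uhrf1 (writing and upkeep), Tet1, Tet2 and Tet3 (removal), and Mbd4 and Zbtb4 (reading). The rule takes them by name and function, with earlier results of these data known, and they were 10 of 20665 protein-coding genes on chromosomes 1 to 19. Endothelial cells were sorted by flow cytometry from lungs of Dnmt3a knockout (KO) and wild-type (WT) mice. Histone marks were mapped by ACT-seq, in which an antibody carries a Tn5 transposase to a mark so that the DNA there is cut and tagged. The labels name 3 samples for each of KO and WT and each of 4 marks, 24 in all, but the deposited values come as a single peak list for each of the 8 groups. The genotype is labelled only as ko or wt. The allele, any Cre driver, the age and the number of animals were not given in the sources used here.

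Because each group is 1 list without heights, depth per sample is unknown, no spread between replicates entered any value, and no test between genotypes was possible. A difference below is a difference between 2 lists, and such a list cannot tell a mark held by fewer cells from a weaker mark in all cells. Peaks of one mark that had at least 1 bp in common between KO and WT are called shared below, and the others KO-only or WT-only. Lists were longer in KO for H3K4me3 (22724 peaks, against 14984 in WT) and H3K27me3 (31022, against 20918), shorter in KO for H3K27ac (44484, against 81112), and nearly equal for H3K4me1 (48458, against 49363). Of 8 endothelial marker genes, 8 had H3K27ac and H3K4me3 peaks in both genotypes over the gene and 5000 bp on each side (H3K27ac 1 to 13 peaks in KO and 2 to 21 in WT), and the 6 with a start in the promoter table used had both marks within 1000 bp of it. Of 12 leukocyte, epithelial and mesenchymal marker genes, 5 had H3K27ac peaks in both genotypes (Cd68, Cdh1, Sftpc, Col1a1 and Acta2), 2 in WT only and 5 in neither, with 0 to 2 peaks in KO and 0 to 4 in WT. H3K4me3 was listed over 2 of the 12 in both genotypes, Sftpc and Cd68, and over 4 in KO only. Of these 12, 7 had a start in the table, with H3K27ac at 0 of them and H3K4me3 at 1, Epcam, in KO only, and the other 5 could not be read at a start. The part of other cell types in the results was not tested.

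DNA methylation in mammals sits mostly on the C of CpG sites. Dnmt3a and Dnmt3b set it on unmethylated DNA, Dnmt3l is a related protein without catalytic activity that assists them, chiefly in germ cells, and Dnmt1 copies it to the new strand after replication, guided by Uhrf1, which binds hemimethylated CpG. The Tet proteins oxidise methylcytosine, the first step of its removal, Mbd4 is a methyl-CpG binding DNA glycosylase that acts on mismatches left by deamination, and Zbtb4 is a zinc finger protein that binds methylated DNA. Of the marks, H3K4me3 lies at active or poised promoters, H3K4me1 at enhancers and promoter flanks, H3K27ac at active promoters and enhancers, and H3K27me3, set by Polycomb, at silenced genes.

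The annotated starts of the 10 genes differ widely in CpG sites, the substrate of these enzymes, and the 4 starts with the fewest were the ones without H3K4me3. The promoter table from RefSeq (GRCm38.p6, the same coordinates as mm10) holds 17 starts for the 10 genes. It does not hold every annotated start, among them the upstream ends of Tet3 (83457208) and Dnmt3a (3801559), and counts at starts below leave these out. Each window below runs from 250 bases before a start to 50 bases after it, on the coding strand, with each CG in capitals. The CG motif reads the same on both strands, and 95.6% of 20085 windows of protein-coding genes hold at least 1, with a median of 14. Dnmt3a has 2 neighbouring upstream starts, at 3806980 and 3807160, and the second is the one shown and called its upstream start below. Shown are 1 unmarked start of Dnmt1 and the more CpG-rich of its 2 marked ones, the upstream and the internal start of Dnmt3a, the start of Dnmt3b, 1 start of Dnmt3l, and the start of Tet2, the window with the most CpG sites of the 17.
Dnmt1 upstream start, chr9:20959839-20960138, minus strand: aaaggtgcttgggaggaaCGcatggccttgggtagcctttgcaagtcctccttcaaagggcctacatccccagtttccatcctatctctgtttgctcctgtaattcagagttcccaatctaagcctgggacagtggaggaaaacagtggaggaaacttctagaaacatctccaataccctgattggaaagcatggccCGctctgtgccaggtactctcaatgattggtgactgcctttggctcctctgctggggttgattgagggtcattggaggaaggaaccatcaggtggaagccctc
Dnmt1 CpG-rich start, chr9:20952574-20952873, minus strand: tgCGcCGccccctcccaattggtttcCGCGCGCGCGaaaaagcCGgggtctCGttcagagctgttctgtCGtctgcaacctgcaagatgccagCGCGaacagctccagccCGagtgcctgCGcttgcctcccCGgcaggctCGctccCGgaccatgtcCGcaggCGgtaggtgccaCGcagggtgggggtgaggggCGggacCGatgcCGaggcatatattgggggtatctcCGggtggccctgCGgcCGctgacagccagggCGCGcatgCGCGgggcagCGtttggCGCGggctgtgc
Dnmt3a upstream start, chr12:3806910-3807209, plus strand: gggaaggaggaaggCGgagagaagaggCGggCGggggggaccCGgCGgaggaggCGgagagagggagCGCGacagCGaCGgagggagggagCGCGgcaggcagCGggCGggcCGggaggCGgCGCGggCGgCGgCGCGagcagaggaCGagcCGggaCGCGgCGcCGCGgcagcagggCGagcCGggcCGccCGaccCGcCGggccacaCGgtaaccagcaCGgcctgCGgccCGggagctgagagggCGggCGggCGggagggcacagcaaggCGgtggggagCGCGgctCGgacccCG
Dnmt3a internal start, chr12:3891494-3891793, plus strand: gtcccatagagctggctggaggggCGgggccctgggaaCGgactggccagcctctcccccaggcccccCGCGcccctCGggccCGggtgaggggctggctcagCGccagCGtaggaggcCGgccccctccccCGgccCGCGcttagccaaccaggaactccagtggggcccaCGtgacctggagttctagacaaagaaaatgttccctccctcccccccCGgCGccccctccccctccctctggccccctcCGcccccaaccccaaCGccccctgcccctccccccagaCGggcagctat
Dnmt3b start, chr2:153649199-153649498, plus strand: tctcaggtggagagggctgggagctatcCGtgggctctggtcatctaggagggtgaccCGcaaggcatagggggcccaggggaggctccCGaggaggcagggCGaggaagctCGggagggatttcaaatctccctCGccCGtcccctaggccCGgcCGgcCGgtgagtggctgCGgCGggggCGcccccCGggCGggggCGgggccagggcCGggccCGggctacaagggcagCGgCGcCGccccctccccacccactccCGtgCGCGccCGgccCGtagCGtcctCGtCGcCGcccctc
Dnmt3l downstream start, chr10:78055085-78055384, plus strand: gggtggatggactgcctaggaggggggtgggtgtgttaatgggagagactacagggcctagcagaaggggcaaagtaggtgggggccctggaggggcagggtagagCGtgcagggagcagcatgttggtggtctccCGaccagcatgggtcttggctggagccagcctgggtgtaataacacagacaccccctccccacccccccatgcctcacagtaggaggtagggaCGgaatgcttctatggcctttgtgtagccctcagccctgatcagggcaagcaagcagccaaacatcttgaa
Tet2 start, chr3:133544341-133544640, minus strand: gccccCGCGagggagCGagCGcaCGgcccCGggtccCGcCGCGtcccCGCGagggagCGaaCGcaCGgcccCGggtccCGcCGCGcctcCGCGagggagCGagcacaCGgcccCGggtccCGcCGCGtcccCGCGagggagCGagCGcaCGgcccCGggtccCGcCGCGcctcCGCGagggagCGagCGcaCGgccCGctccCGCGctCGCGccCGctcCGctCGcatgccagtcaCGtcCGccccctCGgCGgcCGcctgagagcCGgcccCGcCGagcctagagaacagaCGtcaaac

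The upstream start of Dnmt1 held 2 CpG sites, its 2 marked starts 12 and 33, the upstream start of Dnmt3a 47 and its internal start 18, Dnmt3b 30, the downstream start of Dnmt3l 3, and Tet2 57. Of the 17 windows, 13 had H3K4me3 within 1000 bp in both genotypes and held 12 to 57 CpG sites (median 25). The other 4, the upstream start of Dnmt1 and all 3 starts of Dnmt3l, had H3K4me3 in neither genotype and held 2 to 6. Over all starts of protein-coding genes, the medians were 23 CpG sites in 9422 windows with H3K4me3 in both genotypes and 4 in 9223 windows with it in neither. Windows of neighbouring starts share bases, as at Dnmt3a, so that the 17 are not independent.

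**Figure D1:**
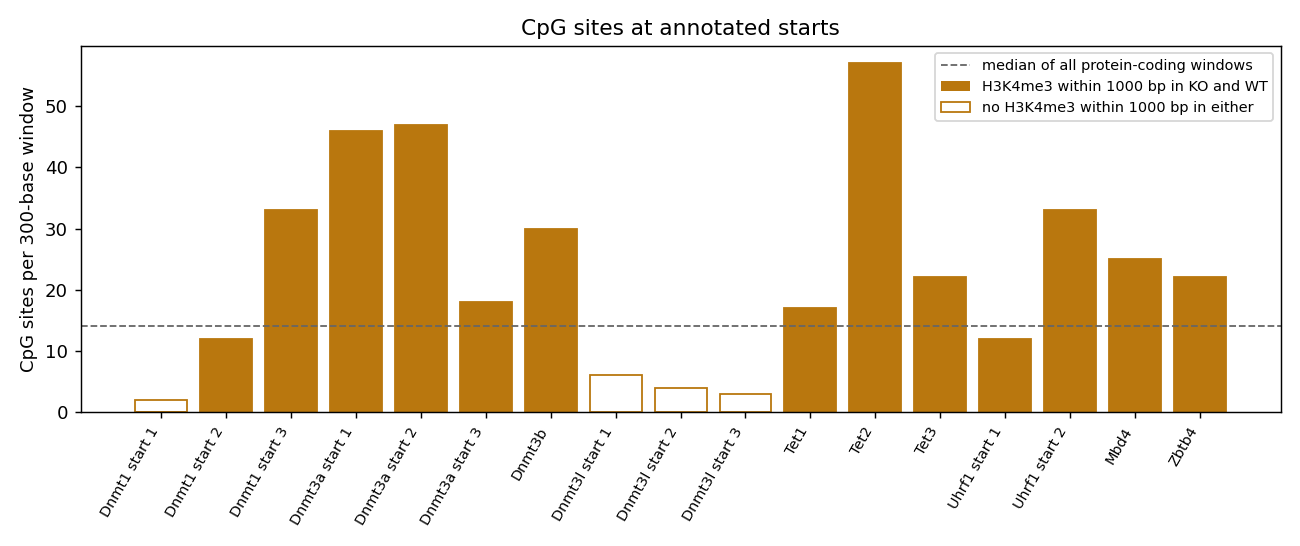
CpG sites in the 300-base window of each of the 17 annotated starts, numbered along the direction of transcription. Filled bars have H3K4me3 within 1000 bp in KO and WT, open bars in neither, and the dashed line is the median of 14 over all protein-coding windows. The 4 open bars lie between 2 and 6 sites, and the 13 filled ones between 12 and 57.

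Of the 10 genes, 9 carried H3K4me3 and H3K27ac within 1000 bp of a start in both genotypes, and Dnmt3l carried them in neither. Over all 16457 protein-coding genes with a start in the table, 48.5% had H3K4me3 in both and 44.3% in neither, and 48.1% had H3K27ac in both and 45.5% in neither. H3K27ac was in 1 genotype only at 0 of the 10 genes (1.63% of all genes in KO only and 4.73% in WT only). H3K4me3 was in KO only at 0 of the 10 genes (6.59% of all genes) and in WT only at 0 (0.565%). H3K4me1 at a start was in both genotypes at 6 genes (38.2% of all genes), in neither at Dnmt3l and Zbtb4 (49.6%), in WT only at 2, Dnmt3b and Tet2 (10.2%), and in KO only at 0 (2.07%). Dnmt3a counts among the 6 through its start at 3807160, and at its starts at 3806980 and 3891744 H3K4me1 was in WT only. For the start at 3806980 this hangs on the cutoff, since a KO peak begins at 3807990, just beyond 1000 bp. H3K27me3 at a start was in both at 4 genes, Dnmt1, Dnmt3l, Tet1 and Tet2 (35.0% of all genes), in neither at 4 (53.6%), in KO only at 2, Uhrf1 and Mbd4 (7.90% of all genes), and in WT only at 0 (3.51%). Tet3 counts among the 4, although KO-only H3K27me3 peaks of 428 and 298 bp lay at its upstream end, which is not in the table.

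Summed over the 10 whole genes with 5000 bp on each side, H3K27ac, H3K27me3 and H3K4me3 peaks differed in the same direction as the lists. For H3K4me3 the difference was smaller than that of the lists. The part of list length in these counts was not tested. H3K27ac had 33 peaks in KO and 53 in WT, and 7 of 10 genes had more in WT, 0 more in KO (40.1% and 6.75% of all genes). H3K27me3 had 13 peaks in KO and 9 in WT, with more in KO at 5 genes and more in WT at 1 (22.8% and 7.93%). H3K4me3 had 24 peaks in KO and 21 in WT, with more in KO at 2 genes, Dnmt3a and Tet2, and more in WT at 1, Zbtb4 (24.8% and 6.91%). H3K4me1 had 38 peaks in each genotype, with more in KO at Dnmt3a and Zbtb4 and more in WT at Tet3 and Mbd4 (14.8% and 21.5%).

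At least 1 KO-only peak was listed at 4 of the 10 genes for H3K27ac (22.5% of all genes), and at 5 each for H3K4me3 (27.4%), H3K27me3 (26.0%) and H3K4me1 (23.3%). At least 1 WT-only peak was listed at 8 genes for H3K27ac (45.7% of all genes), 5 for H3K4me1 (29.7%), 4 for H3K4me3 (8.87%) and 1 for H3K27me3, which was Dnmt3l (12.3%). All but Mbd4 were longer than the median protein-coding gene (17.5 kb), though Zbtb4 (18.1 kb), Uhrf1 (20.15 kb) and Dnmt3l (21.3 kb) lay near it. A longer gene has more room for such a peak, and the part of length in these counts was not tested. As shares of peaks, the counts compare as follows. H3K4me3 peaks were KO-only in 9 of 24 cases (37.5%, exact binomial interval 18.8 to 59.4), where 41.0% of the KO peaks over any protein-coding gene were. They were WT-only in 5 of 21 cases (23.8%, 8.22 to 47.2), against 13.6% over all genes. H3K27ac peaks were KO-only in 5 of 33 cases (15.2%, 5.11 to 31.9, with 27.9% over all genes) and WT-only in 26 of 53 (49.1%, 35.1 to 63.2, with 56.4%). H3K4me1 peaks were KO-only in 13 of 38 cases (34.2%, 19.6 to 51.4, with 24.8%) and WT-only in 12 of 38 (31.6%, 17.5 to 48.7, with 23.7%). H3K27me3 peaks were KO-only in 6 of 13 cases (46.2%, 19.2 to 74.9, with 43.8%) and WT-only in 1 of 9 (11.1%, 0.281 to 48.2, with 19.2%). Each of the 8 intervals includes the share over all genes. These 95% intervals take each peak as independent, and they cover only counting error. Peaks cluster by gene: Dnmt3a alone held 5 of the 9 KO-only H3K4me3 peaks and 9 of the 26 WT-only H3K27ac peaks. The intervals are therefore no test of the 10 genes.

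**Figure D2:**
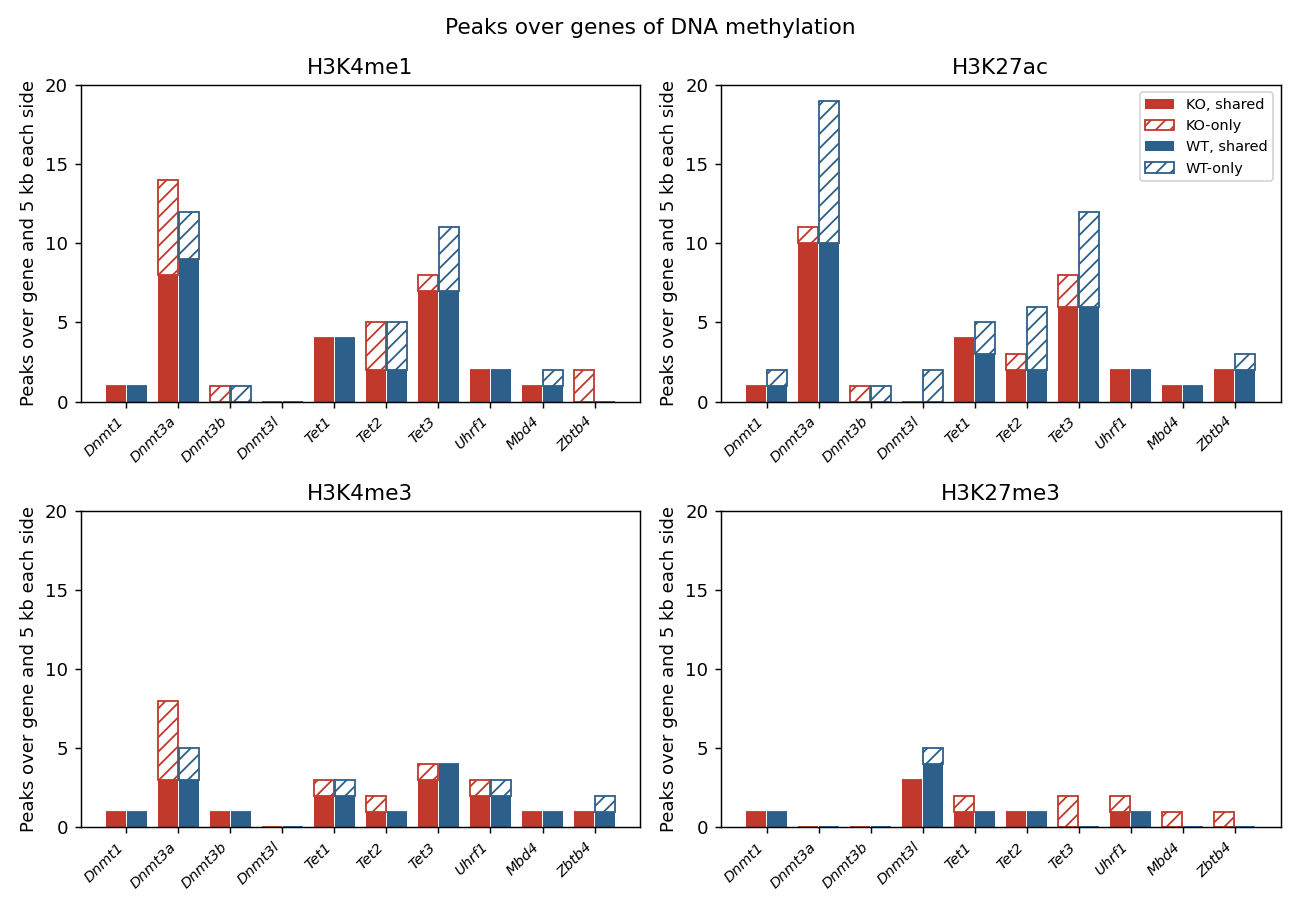
Number of peaks (y axis) over each gene and 5 kb on each side, KO left of WT, in 1 panel per mark. Solid bars are peaks shared between genotypes and hatched bars peaks of 1 genotype only. Dnmt3a and Tet3 hold the most H3K27ac peaks, 11 and 8 in KO against 19 and 12 in WT, and Dnmt3l has no bar for H3K4me1 or H3K4me3.

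At their own starts the H3K4me3 peaks were wider in KO. Among pairs in which 1 KO peak met 1 WT peak within 1000 bp of an own start, the KO peak was wider in 10 of 11 and equal in 1, with KO over WT ratios from 1 to 3.60 and a median of 1.26. The same direction held at 73.6% of 6959 such pairs over all protein-coding starts, with a median ratio of 1.16. The ratio was largest at the internal start of Dnmt3a (655 bp in KO, 182 bp in WT), followed by Tet3 (606 and 300 bp), Mbd4 (630 and 414 bp), Zbtb4 (1019 and 762 bp) and Tet2 (1568 and 1198 bp). The 3 H3K4me3 pairs away from the own starts were all narrower in KO, with ratios of 0.736 to 0.987, and 2 of them lay at ends of other genes, Kdm4b and Gm51805. Over all 10606 H3K4me3 pairs, at starts or not, 73.1% were wider in KO, and over the 14 pairs of the 10 genes 71.4% were. H3K27ac at own starts went mostly the other way, with 3 of 9 pairs wider in KO (37.0% over all starts) and a median ratio of 0.843. H3K4me1 was wider in KO in 2 of 6 such pairs (46.5% over all starts) and H3K27me3 in 4 of 5 (71.2%). Widths depend on the depth of each list and its peak threshold, neither of which is known here, and their part in these ratios was not tested.

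**Figure D3:**
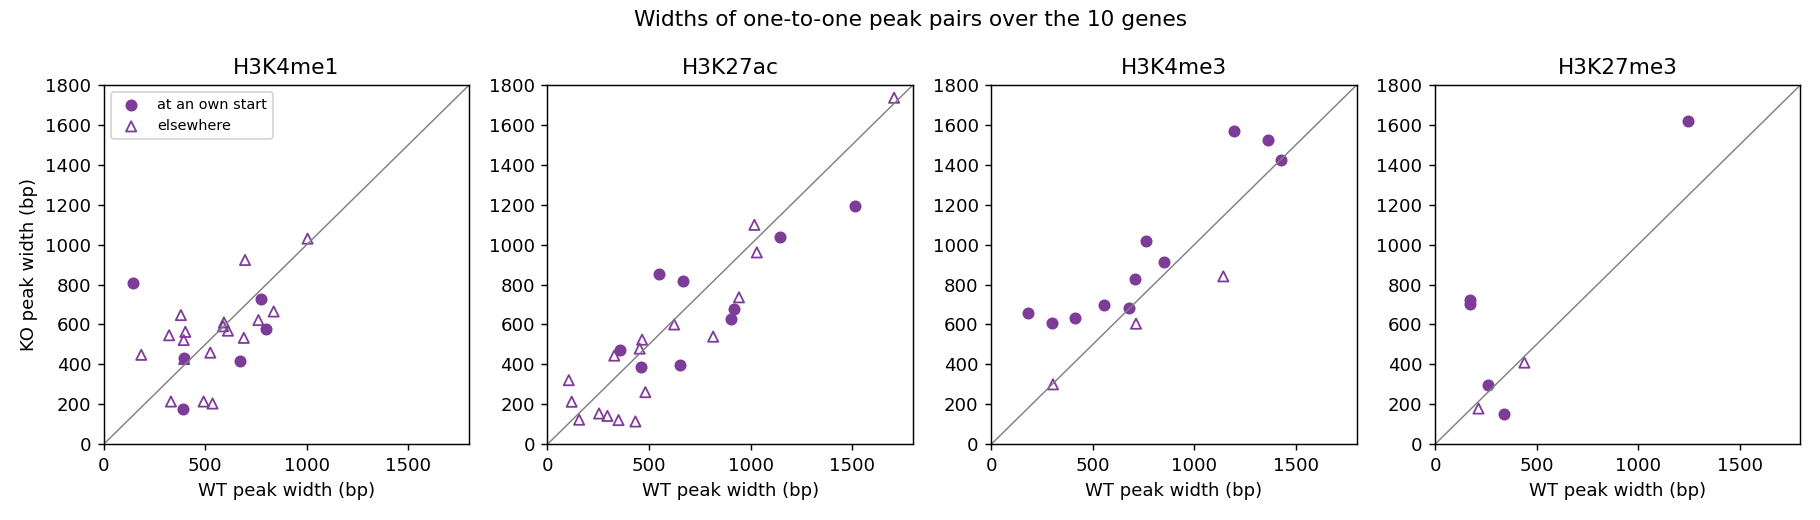
Width of the KO peak (y axis, bp) against the WT peak it overlaps (x axis, bp) for pairs in which each meets 1 peak only, over the 10 genes. Filled circles lie within 1000 bp of an own start, open triangles elsewhere, and the line marks equal widths. The 11 H3K4me3 circles lie on or above the line, the 3 triangles below it.

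Dnmt3a (chromosome 12, 3801559 to 3914443), the gene named in the knockout, is the longest of the 10 genes (113 kb). By count it had the most peaks of the 10 for H3K4me1, H3K27ac and H3K4me3, and no H3K27me3 peak in either genotype. Per 10 kb of gene and flanks it still ranked first for H3K27ac in both genotypes and for H3K4me1 in KO. In WT, H3K4me1 was denser at Tet3 (1.05 peaks per 10 kb, against 0.977 at Dnmt3a). H3K4me3 was densest at Uhrf1, with 0.995 peaks per 10 kb in each genotype, against 0.651 in KO and 0.407 in WT at Dnmt3a. The Uhrf1 value includes, in each genotype, a peak in the downstream flank across an end of Kdm4b, which can belong to that gene. The upstream start of Dnmt3a was flanked by H3K4me3 peaks of 699 and 1426 bp in KO and 555 and 1426 bp in WT. Downstream of it H3K4me1 was 806 bp wide in KO (3807990 to 3808795) and 145 bp in WT (3808502 to 3808646), and H3K27ac was 1194 bp in KO and 1517 bp in WT. Before it, H3K27ac was 470 bp in KO and 355 bp in WT, and a WT-only H3K4me1 peak of 146 bp (3806352 to 3806497) had no KO counterpart. At the internal start, whose window is printed above, the KO H3K4me3 peak from 3891218 to 3891872 covered the start itself, whereas the WT peak from 3891341 to 3891522 ended 222 bp before it. H3K27ac ended just before that start in both genotypes (388 bp wide in KO, 460 bp in WT), and a WT H3K4me1 peak of 342 bp had no KO counterpart.

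Inside Dnmt3a, H3K4me3 was listed in KO only over regions that carried H3K4me1 and H3K27ac in both genotypes. Of the 8 KO H3K4me3 peaks in the gene, 5 were KO-only (41.0% of KO peaks over all genes). Of these 5 KO-only peaks, 4 overlapped H3K4me1 and H3K27ac in both genotypes. The widest, of 755 bp, lay 35270 bp before the internal start, on H3K4me1 of 1030 bp in KO and 1004 bp in WT. The next, of 521 bp, lay 26632 bp after the upstream start with a 121 bp peak farther on. Both were inside an H3K4me1 peak of 1744 bp in KO that met 2 WT peaks of 708 and 747 bp, and the H3K27ac peaks there were 1736 bp in KO and 1707 bp in WT. One of 394 bp lay 3581 bp before the internal start, where H3K27ac was 736 bp wide in KO and 943 bp in WT. The remaining KO-only peak of Dnmt3a (209 bp) and those in Tet1, Tet2, Tet3 and Uhrf1 (133 to 235 bp) overlapped neither mark. Over the whole KO list, 51.5% of KO-only H3K4me3 peaks lay on WT H3K4me1 and 50.0% on WT H3K27ac, and over the 10 genes 4 of 9 did (44.4%). The share of the whole list that lay on both marks in both genotypes was not computed. Endothelial marker genes held KO-only H3K4me3 peaks as well. They made up 8 of 13 KO peaks at Erg, 4 of 6 at Cdh5, 3 of 4 at Kdr and 2 of 3 at Emcn. The counts were 1 of 4 at Pecam1, 1 of 3 at Cldn5, 0 of 5 at Tek and 0 of 1 at Tie1. Whether the peaks at these marker genes lay on H3K4me1 and H3K27ac was not computed.

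Other differences over Dnmt3a were narrow peaks. H3K27ac had 11 peaks in KO, 1 of them KO-only, and 19 in WT, 9 of them WT-only, at 109 to 423 bp (27.9% of KO and 56.4% of WT H3K27ac peaks over all genes were of 1 genotype only). When the WT list was shortened to the length of the KO list by keeping the widest peaks, 2 of these 9, of 214 and 423 bp, remained. That step drops every WT H3K27ac peak under 197 bp, so that it sorted these 9 by width alone. H3K4me1 had 14 peaks in KO, 6 of them KO-only, and 12 in WT, 3 of them WT-only (24.8% and 23.7% over all genes). Of the 6 KO-only peaks, 3 (121 to 215 bp) lay together between 3870946 and 3871972. The last KO peak of any mark ended at 3891872, and 5 WT peaks, 3 of H3K27ac and 2 of H3K4me3, 141 to 423 bp wide, lay beyond it. That boundary was set by the KO peaks themselves, so the absence of KO peaks there is no finding. The lists carry no signal from which a deletion in Dnmt3a could be read, so the genotype labels were not checked.

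**Figure D4:**
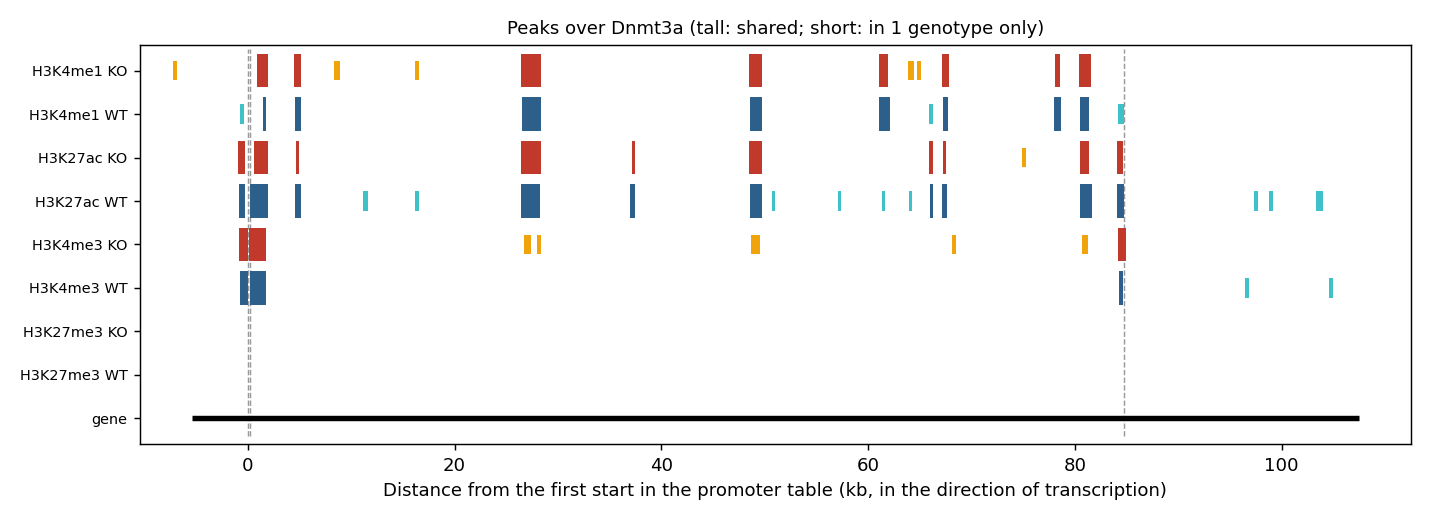
Peaks over Dnmt3a by distance from its first start in the promoter table, at 3806980 (x axis, kb), 1 row per mark and genotype, KO above WT. Tall red (KO) and blue (WT) boxes are shared peaks, short orange boxes are KO-only, short cyan boxes are WT-only, dashed lines are annotated starts, and the black bar is the gene. Each box has an outline that makes narrow peaks look wider than they are. The KO-only H3K4me3 boxes over the blocks of H3K4me1 and H3K27ac have no WT counterpart, and the H3K27me3 rows are empty.

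By the share of the gene and its flanks that each of the 8 lists covered, the protein-coding genes most like Dnmt3a were Wdfy1, Sdcbp2 and Angpt2. Their Euclidean distances over the 8 values were 0.825, 0.833 and 1.29 percentage points. H3K4me3 covered 3.89% of Dnmt3a in KO and 2.07% in WT. The shares were 3.29% and 2.09% at Wdfy1 and 3.50% and 2.34% at Sdcbp2. They were 4.06% and 2.13% at Angpt2, which encodes an endothelial ligand of the Tek receptor. The 3 genes were picked by these same 8 shares, so that their likeness in H3K4me3 was fixed by the choice and is no finding. The 8 shares come from the same lists and are not independent samples.

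Dnmt3b (chromosome 2, 153649411 to 153687730), the other de novo methyltransferase, had a single H3K4me3 peak over its start in each genotype, 914 bp in KO and 853 bp in WT, and no H3K27me3. Its H3K27ac and H3K4me1 differed in position. H3K27ac was a 185 bp peak from 153649937 to 153650121 in KO and a 681 bp peak from 153649251 to 153649931 in WT, which lay across the start and ended 6 bp before the KO peak. H3K4me1 was a 370 bp peak 1810 bp past the start in KO and a 179 bp peak over the start in WT. Each of these 4 peaks was therefore KO-only or WT-only.

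Dnmt3l (chromosome 10, 78042287 to 78063622) was the only gene of the 10 without H3K4me3 or H3K4me1 in either genotype. Its H3K27ac was not listed in KO, and in WT consisted of peaks of 108 and 101 bp. H3K27me3 was listed at 3 peaks in KO and 5 in WT, and the 1 WT-only peak (182 bp) lay over the downstream start printed above. A shared H3K27me3 peak of 296 bp in KO and 260 bp in WT lay before the middle start. Another, 724 bp in KO and 171 bp in WT, covered an annotated start of Aire, whose gene overlaps Dnmt3l, and those in the downstream flank lay nearest a start of Icosl, so that they can belong to either gene. The last of these, 1497 bp in WT, covered that start, lay on the edge of the flank and met a KO peak beyond it.

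Dnmt1 (chromosome 9, 20907206 to 20959888), the maintenance methyltransferase, held all its shared peaks at 1 place, around the neighbouring starts with 12 and 33 CpG sites inside the annotated gene. H3K4me3 was 827 bp wide in KO and 708 bp in WT there, H3K27ac 819 and 668 bp, and H3K4me1 419 and 669 bp. H3K27me3 overlapped them with 704 bp in KO and 174 bp in WT, a ratio of 4.05. Besides these, the gene had 1 WT-only H3K27ac peak of 118 bp.

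Uhrf1 (chromosome 17, 56303337 to 56323486), the partner of Dnmt1, was marked at its second annotated start by H3K4me3 of 685 bp in KO and 679 bp in WT, H3K27ac of 398 and 655 bp, and H3K4me1 of 431 and 394 bp. H3K27me3 there was a KO-only peak of 173 bp. A WT-only H3K4me3 peak of 257 bp lay 2 bp past the first annotated start. In the downstream flank all 4 marks were listed in both genotypes across the annotated end of Kdm4b at 56325970 that faces Uhrf1, and that group of peaks can belong to Kdm4b, an H3K9 demethylase.

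**Figure D5:**
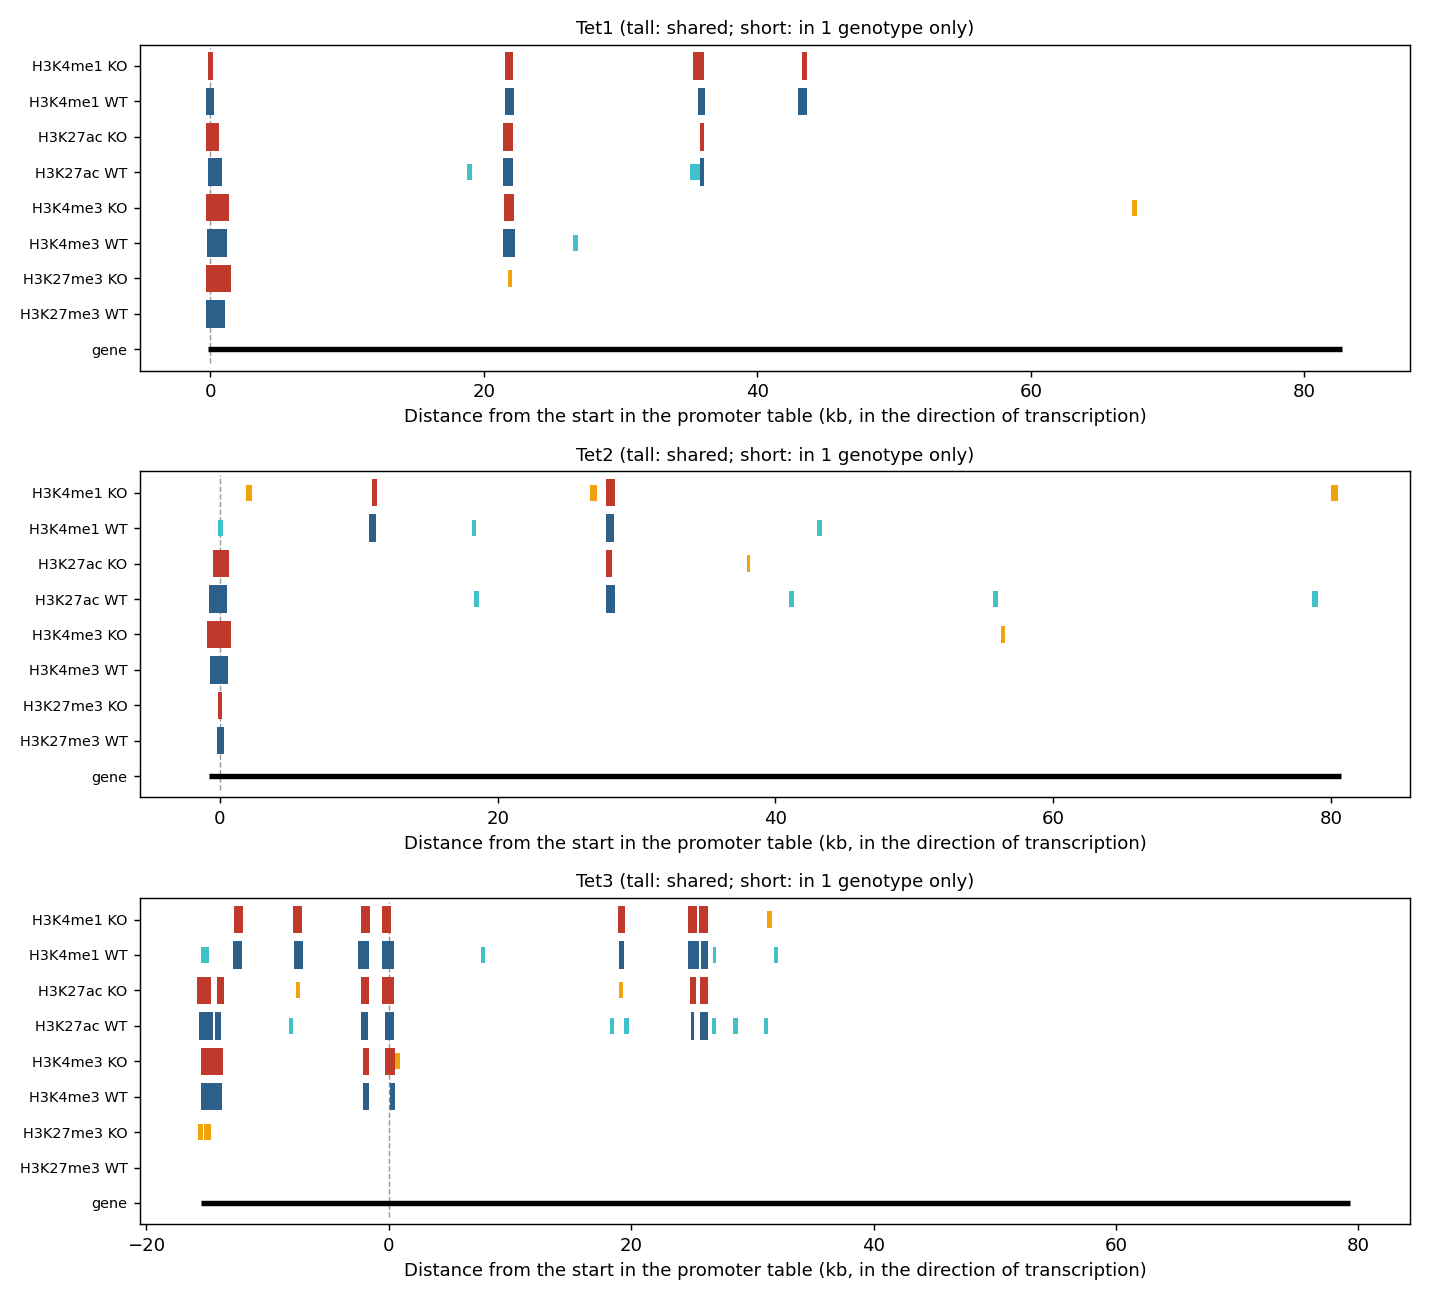
Peaks over Tet1, Tet2 and Tet3 by distance from the start in the promoter table (x axis, kb), 1 row per mark and genotype, KO above WT, drawn as for Dnmt3a. Tet1 carries all 4 marks at its start in both genotypes, and at Tet3 the H3K27me3 boxes of KO lie at the upstream end of the gene, where WT has none.

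Tet1 (chromosome 10, 62804570 to 62887469) combined active marks and wide H3K27me3 at its start in both genotypes. H3K4me3 was 1522 bp wide in KO and 1363 bp in WT, and H3K27me3 1619 bp and 1247 bp. These were the widest H3K27me3 peaks of the 10 genes, except for the 1497 bp WT peak at Icosl. H3K27ac was listed as peaks of 172 and 487 bp in KO, where WT had 1 peak of 874 bp. H3K4me1 was 175 bp in KO and 390 bp in WT. Inside the gene, 21511 bp from the start, another place carried H3K4me3 (604 bp in KO, 713 bp in WT), H3K27ac (600 and 624 bp) and H3K4me1 (459 and 525 bp), with a KO-only H3K27me3 peak of 118 bp. One end of the noncoding gene Gm51805, at 62865670, lies within it. Each list sums many cells, and marks at 1 place need not sit on the same molecule.

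Tet2 (chromosome 3, 133463677 to 133545136), with the most CpG-rich start of the 17, had an H3K4me3 peak of 1568 bp in KO and 1198 bp in WT and H3K27ac of 1036 and 1146 bp. H3K27me3 there was 153 bp in KO and 338 bp in WT, and a 220 bp H3K4me1 peak over the start was WT-only. More than 1000 bp from the start, H3K4me1 had 5 peaks in KO and 4 in WT, of which 2 in each were shared. H3K27ac had 2 in KO, 1 of them KO-only (112 bp), and 5 in WT, 4 of them WT-only (170 to 230 bp). Over all genes, 24.8% of KO and 23.7% of WT H3K4me1 peaks were of 1 genotype only. For H3K27ac these shares were 27.9% and 56.4%. The counts at Tet2 are small and were not tested against these shares. The only place inside the gene where both marks were shared lay 27879 bp from the start, with H3K4me1 of 522 bp in KO and 394 bp in WT and H3K27ac of 261 and 482 bp.

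Tet3 (chromosome 6, 83362373 to 83457208) carried shared H3K4me3 at 3 places: the upstream end of the annotated gene, the start in the promoter table, and a narrow peak 1753 bp from that start (300 bp in KO, 304 bp in WT). At the upstream end, KO had 1 H3K4me3 peak of 1664 bp, and WT had peaks of 614 and 852 bp within the same stretch. H3K27ac was 961 bp in KO and 1031 bp in WT. The upstream end was also where H3K27me3 was listed in KO only, at 428 and 298 bp, and H3K4me1 in WT only, at 511 bp. At the start in the table, which lies beside one end of the noncoding gene B230319C09Rik, H3K4me3 was 606 bp in KO and 300 bp in WT, H3K27ac 854 and 547 bp, and H3K4me1 576 and 797 bp. Away from that start, 6 further H3K4me1 peaks were shared, 448 to 622 bp wide in KO and 185 to 762 bp in WT.

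Mbd4 (chromosome 6, 115840697 to 115853400) carried the 3 active marks at its start in both genotypes. H3K4me3 was 630 bp wide in KO and 414 bp in WT, H3K27ac 675 and 921 bp, and H3K4me1 728 and 774 bp. H3K27me3 was a KO-only peak of 488 bp, from 115853191 to 115853678, the widest KO-only H3K27me3 peak of the 10 genes. One end of Ift122, a cilium gene, lies at 115853379, within the Mbd4 gene, and the peaks cannot be assigned to 1 of the 2 genes.

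Zbtb4 (chromosome 11, 69765912 to 69784026) had H3K4me3 of 1019 bp in KO and 762 bp in WT just past its start and H3K27ac of 627 and 903 bp. From 1292 bp after the start on, the lists differed by genotype. KO had H3K4me1 of 351 bp, which was KO-only, and H3K27ac of 121 bp there. WT had H3K27ac of 326 bp, WT-only, and 350 bp, which met the KO peak, WT-only H3K4me3 of 343 bp, and no H3K4me1. A KO-only H3K27me3 peak of 217 bp and a KO-only H3K4me1 peak of 236 bp lay together in the downstream flank, inside Chrnb1.

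The KO-only H3K27me3 peaks over these genes lay mostly on active marks. Of the 6, 5 overlapped H3K27ac of both genotypes (83.3%) and 5 overlapped WT H3K4me3, at Tet1, Tet3, Uhrf1 and Mbd4, whereas over the whole KO list 14.8% of KO-only H3K27me3 peaks overlapped WT H3K27ac and 7.26% WT H3K4me3. Of the 7 shared H3K27me3 peaks in KO, 4 lay on H3K27ac of both genotypes (57.1%, with 47.9% on WT H3K27ac over the whole list). The remaining peak, in the flank of Zbtb4, lay on KO H3K4me1. The whole list also holds peaks outside genes and at genes without active marks, whereas 9 of the 10 genes had both active marks at a start. A share for such genes alone was not computed. With lists of equal length, 3 of the 6 peaks remained KO-only, those of Mbd4 and the upstream end of Tet3. That setting drops KO H3K27me3 peaks under 285 bp, so that it sorted the 6 by width alone. Since 5 peaks at 4 genes make up the share of 83.3%, it is a description. Whether H3K27me3 calls on active marks are Polycomb marking or background at open chromatin was not tested.

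Other genes of DNA methylation mostly carried both active marks at their starts. Of 23 such genes, among them the glycosylase Tdg, the Uhrf1 relative Uhrf2, the remodeller Hells, the Gadd45 genes and the Mbd family, 18 had a start in the table. H3K4me3 was in both genotypes at 17 of the 18 (48.5% of all genes) and in KO only at 1 (6.59%), Smug1, a uracil DNA glycosylase. H3K27ac was in both at 17 (48.1%) and in neither at Smug1. H3K4me1 was in both at 13 (38.2%), in WT only at 2 (10.2%), Hells and Mbd6, and in KO only at 0 (2.07%). H3K27me3 was in both at 12 (35.0%), in KO only at 2 (7.90%), Idh2, a mitochondrial isocitrate dehydrogenase, and Zbtb38, a methyl-CpG binding zinc finger protein, and in WT only at 1 (3.51%), Smug1. H3K4me3 was in WT only at 0 of the 18 (0.565%).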

How the data were processed

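ACT-seq samples of KO and WT lung endothelial cells, 3 for each of 4 marks and 2 genotypes, were analysed from 8 deposited peak lists that give chromosome, first base, last base and width in bp (the authors' deposited values, used without rescaling). The submitters' processing notes name MACS2 2.1.2.1, deepTools 3.1.1, SAMtools, Bowtie2 2.2.6, cutadapt 1.14 and Trim Galore 0.4.4, with the builds mm10 and R64. Their roles, the peak threshold and any pooling were not given in the sources used here, and depth is unknown. Python 3.11.15, numpy 2.4.6, pandas 2.3.3, scipy 1.17.1 and matplotlib 3.10.9 were used. Genes were taken from RefSeq GRCm38.p6 with 5000 bp on each side, and starts from its promoter table, which covers 16457 of 20665 protein-coding genes. Members and lists were chosen with earlier results of these data known. The text names the 10 genes and their peaks, other methylation genes with H3K4me3 or H3K27me3 at a start in 1 genotype, and the 3 genes closest to Dnmt3a (symbols starting Gm or ending Rik passed over). Hells, Mbd6 and genes that neighbour a peak were named after their values were seen. The overlap step was tested on simulated lists. Alternatives were no flank, a minimum width, equal list lengths, a stricter overlap, other distances from a start, and leaving out peaks over other genes.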

Additional observations from a re-analysis of the deposited data

How the results depend on the processing

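Of 42 values recomputed under other settings, 33 stayed within 1.5 times the value given and 9 did not. With peaks under 200 bp left out, WT-only peaks numbered 6 in place of 12 for H3K4me1, 15 in place of 26 for H3K27ac, 3 in place of 5 for H3K4me3 and 2 in place of 1 for H3K27me3. When KO and WT lists were shortened to the same number of peaks, keeping the widest, KO-only peaks numbered 8 in place of 5 for H3K27ac, 3 in place of 9 for H3K4me3 and 3 in place of 6 for H3K27me3, and WT-only peaks 11 in place of 26 for H3K27ac and 3 in place of 1 for H3K27me3. That setting drops KO H3K4me3 peaks under 253 bp, KO H3K27me3 peaks under 285 bp and WT H3K27ac peaks under 197 bp. The 3 KO-only H3K4me3 peaks left were those of 755, 521 and 394 bp in Dnmt3a, and the 3 KO-only H3K27me3 peaks left were those of Mbd4 and the upstream end of Tet3. A flank of 0 bp, an overlap of at least 50% of the narrower peak, and leaving out peaks over other protein-coding genes, a setting chosen after seeing the data, kept all 8 counts within 1.5 times. H3K4me3 within 200 bp of a start was in both genotypes at 8 of the 10 genes, and within 2000 bp at 9. No paired analysis was possible because each group is 1 list with no value per sample, and for the same reason no sample could be left out. Unknown depth limits every absence stated here.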

Other observations

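Values for 3 other genes of DNA methylation, over the gene and 5000 bp on each side, were picked after they were seen. Cxxc5, a CXXC zinc finger gene, had 7 H3K27me3 peaks in KO, all KO-only, and 0 in WT, where 43.8% of KO H3K27me3 peaks over all genes were KO-only. Mbd2, a methyl-CpG binding repressor, had 12 H3K4me1 peaks in KO, 4 of them KO-only (24.8% over all genes), and 8 in WT, 0 of them WT-only (23.7%). Mbd5 had 5 H3K27ac peaks in KO, 2 of them KO-only (27.9% over all genes), and 16 in WT, 13 of them WT-only (56.4%). No test was possible for these counts.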
